A study of Mus musculus with 98 samples.

Results

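The mast cell proteases followed here are 6 genes of the 23420 in the tables: Tpsb2, Cpa3, Cma1, Mcpt4, Mcpt1 and Mcpt2. They were chosen by their TPM in these same cells, since earlier work on these tables had found several of them in R9 cells and not in wild-type cells, so their presence in R9 cells is a description and carries no test. Expression was measured by RNA sequencing of single intestinal innate lymphoid cells (ILCs), lymphocytes that lack rearranged antigen receptors. R9-ILCs, regenerated from pluripotent stem cells according to the study's title, were sorted as CD45.2+GFP+Lin-CD127+ cells from the intestine of Rag2-/-Il2rg-/- recipients 3 weeks after transplantation. Hosts of that genotype are known to lack T, B and innate lymphoid cells of their own and to keep myeloid cells, mast cells among them, and GFP was part of the R9 gate alone. WT-ILCs were sorted as CD45.2+Lin-CD127+ cells, with no GFP in the gate, from the intestine of wild-type C57BL/6 mice that were 8 weeks old, and the strain label C57BL/6 is given for both kinds of cell. The R9 titles form 2 series, 32 cells with no ending (here the unmarked R9 cells) and 35 cells with the ending 1 (here the ending-1 R9 cells), and the labels do not say what the ending means. The WT table has 31 columns, several of which hold nearly the same values. Columns that resembled each other were averaged, giving 22 WT cells, of which 8 combine several columns. No animal is named, so each of the 3 groups counts as 1 sample, there is no replicate check, and every statement below describes these cells without a test.

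Mast cells store their proteases in secretory granules, bound to the proteoglycan serglycin, and release them on activation. Tryptases (Tpsb2) cut after basic residues, chymases (Cma1, Mcpt4, Mcpt1 and Mcpt2) form another serine protease family, and carboxypeptidase A3 (Cpa3) trims the ends of peptides. In the mouse, Mcpt1 and Mcpt2 are known from mucosal mast cells of the intestine, whereas Tpsb2, Cma1 and Mcpt4 are known from connective tissue mast cells.

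The genes lie at 3 places of the genome (build mm10, GENCODE vM21 annotation). Cpa3 is on chromosome 3 (20215620 to 20242181, minus strand) and Tpsb2 on chromosome 17 (25366305 to 25369098, plus strand), next to the second tryptase gene Tpsab1 (25343245 to 25345562, minus strand). The 4 chymase genes share a stretch of chromosome 14, with Cma1 at 55941451 to 55944675 on the minus strand, Mcpt1 at 56017971 to 56020384 on the plus strand, Mcpt2 at 56042041 to 56044642 on the plus strand and Mcpt4 at 56059629 to 56062313 on the minus strand. The 250 bases before the RefSeq gene start (GRCm38.p6) are shown for the 4 members that have an entry, since Cpa3 and Cma1 appear together in most unmarked R9 cells while Mcpt4 and Mcpt1, neighbours of Cma1, do not. Each is read 5′ to 3′ on the strand of its gene. Capitals mark a GATA motif (AGATAA), an E-box (CANNTG) or a TATA motif (TATAAA), searched on both strands.
Cpa3, chr3:20242182-20242431, minus strand: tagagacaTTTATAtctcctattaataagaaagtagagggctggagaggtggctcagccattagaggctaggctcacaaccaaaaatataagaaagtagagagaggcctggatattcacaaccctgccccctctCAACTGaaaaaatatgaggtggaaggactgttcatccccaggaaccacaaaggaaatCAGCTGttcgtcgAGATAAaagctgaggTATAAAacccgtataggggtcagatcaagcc
Cma1, chr14:55944676-55944925, minus strand: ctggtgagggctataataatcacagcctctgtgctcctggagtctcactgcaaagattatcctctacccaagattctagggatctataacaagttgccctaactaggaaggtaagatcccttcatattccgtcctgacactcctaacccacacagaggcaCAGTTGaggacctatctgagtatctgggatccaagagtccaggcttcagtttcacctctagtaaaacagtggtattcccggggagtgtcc
Mcpt4, chr14:56062311-56062560, minus strand: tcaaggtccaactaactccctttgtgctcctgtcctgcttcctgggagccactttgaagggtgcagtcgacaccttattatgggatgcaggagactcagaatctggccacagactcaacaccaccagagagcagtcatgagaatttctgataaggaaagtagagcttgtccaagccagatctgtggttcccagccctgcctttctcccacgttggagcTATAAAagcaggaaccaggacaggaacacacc
Mcpt1, chr14:56017714-56017963, plus strand: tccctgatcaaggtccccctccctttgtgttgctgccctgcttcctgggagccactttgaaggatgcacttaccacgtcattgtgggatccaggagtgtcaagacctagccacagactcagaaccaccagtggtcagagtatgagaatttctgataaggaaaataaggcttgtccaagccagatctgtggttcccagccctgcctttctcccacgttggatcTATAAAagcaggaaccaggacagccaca
The Cpa3 window holds an AGATAA whose first base is 46 bases before the start, 2 E-boxes, a TATAAA 31 bases before the start and a TATAAA on the opposite strand. Of the letters searched, the Cma1 window holds 1 E-box and neither AGATAA nor TATAAA. The Mcpt4 and Mcpt1 windows hold only a TATAAA, 32 and 28 bases before the start. Other forms of the GATA motif were not searched, such as TGATAA, which the Mcpt4 and Mcpt1 windows hold. A window without AGATAA is therefore not shown to lack a GATA motif. Of the 32851 mouse promoter windows of that length, 9.99% hold AGATAA, 66.2% hold CANNTG and 12.4% hold TATAAA, and these matches are descriptions of letters only. The Mcpt4 and Mcpt1 windows are 88.9% identical over 235 aligned bases, although the cells in which the genes were seen differ, as described below.

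Values are TPM, transcript abundances scaled by the authors to the same total in each column and per transcript length, so levels of different genes can be compared. Tpsb2, the tryptase, had a lowest value of 0, a median of 496.9 and a highest value of 1646.1 TPM in the unmarked R9 cells, and was listed at 0 in all 35 ending-1 R9 cells and in all 22 WT cells. The mean in the unmarked R9 cells was 575.1 ± 460.9 TPM (SD over 32 cells). It reached 10 TPM in 31 of 32 unmarked R9 cells, a share of 96.9% with an exact Clopper-Pearson 95% interval of 83.8% to 99.9%. The 0 of 35 and 0 of 22 cells allow shares of up to 10.003% in ending-1 R9 cells and 15.4% in WT cells by the same interval. These intervals cover counting error only. Unmarked R9 cell 33 was the only one of its group with Tpsb2 listed at 0, and every other cell of that group lay above all cells of the other 2 groups.

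Cpa3, the carboxypeptidase, ranged from 0 through a median of 410.7 to 1976.4 TPM in the unmarked R9 cells, with a mean of 566.5 ± 567.4 TPM (SD over 32 cells). In the ending-1 R9 cells the median was 0 and the highest value was 615.9 TPM, and in the WT cells every value was 0. Cpa3 reached 10 TPM in 30 of 32 unmarked R9 cells (93.8%, 79.2% to 99.2%) and in 1 of 35 ending-1 R9 cells (2.86%, 0.0723% to 14.9%). That 1 cell, ending-1 cell 11, held 99.5% of all Cpa3 TPM of its group. It had no other member above 0, 2451 genes at 1 TPM or more, and the ILC3 gene Il23r at 318.0 TPM. The groups therefore overlapped only through this cell and through unmarked R9 cells 15 and 41, which had Cpa3 at 0 beside Tpsb2 at 1121.1 and 838.4 TPM.

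Cma1, a chymase known to be stored together with Cpa3 in mouse connective tissue mast cells, ranged from 0 through a median of 243.2 to 1428.3 TPM in the unmarked R9 cells (mean 335.8 ± 350.8, SD over 32 cells). It was listed at 0 in all ending-1 R9 cells, and 1 WT cell, cell 9, had 3.91 TPM. It reached 10 TPM in 27 of 32 unmarked R9 cells, a share of 84.4% (67.2% to 94.7%). Unmarked R9 cells 1, 7, 25 and 37 had Cma1 at 0, and every remaining cell of the group lay above all cells of the other groups.

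Mcpt4, a second chymase, split the unmarked R9 cells. It was listed at 0 in 24 of them, and in the other 8 it was 31.0, 97.8, 118.8, 125.4, 144.3, 148.6, 277.5 and 328.1 TPM, with a 95% interval of 11.5% to 43.4% for the share of cells. All ending-1 R9 cells and all WT cells had 0. The 8 cells with Mcpt4 were spread over the range of the other proteases: the sum of Tpsb2, Cpa3 and Cma1 was 319.9 TPM at its lowest, 1242 at its median and 3724 at its highest in these 8 cells, against 61.1, 1349 and 4568 TPM in the 24 cells without Mcpt4. All 8 also had Tpsb2, Cpa3 and Cma1 above 0.

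The mucosal chymases showed another pattern. Mcpt1 was listed at 0 in every unmarked R9 cell and every WT cell, and was seen in 1 ending-1 R9 cell, cell 42, at 395.7 TPM, a cell with 4549 genes at 1 TPM or more. Mcpt2 was listed at 0 in all 89 cells. For Mcpt2 this allows shares of up to 10.9% of unmarked R9 cells, 10.003% of ending-1 R9 cells and 15.4% of WT cells. An exact 0 in these tables need not mean absence, since the glycolytic gene Gapdh, which all cells need, had a value of 0 in 24 of 32 unmarked R9 cells, 1 of 35 ending-1 R9 cells and 9 of 22 WT cells. Related copies with similar sequence add a limit. Over their aligned bases, Mcpt1 and Mcpt2 transcripts are 87.0% identical with a longest identical run of 49 bases. Mcpt4 and Mcpt1 are 87.7% identical with a run of 46, and Mcpt4 and Mcpt2 85.3% with a run of 33. Tpsb2 and Tpsab1 are 83.9% identical over 930 aligned bases with a run of 39. How the authors' counting assigned reads between such copies is not given in the sources used here, so the split between those genes is uncertain.

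**Figure D1:**
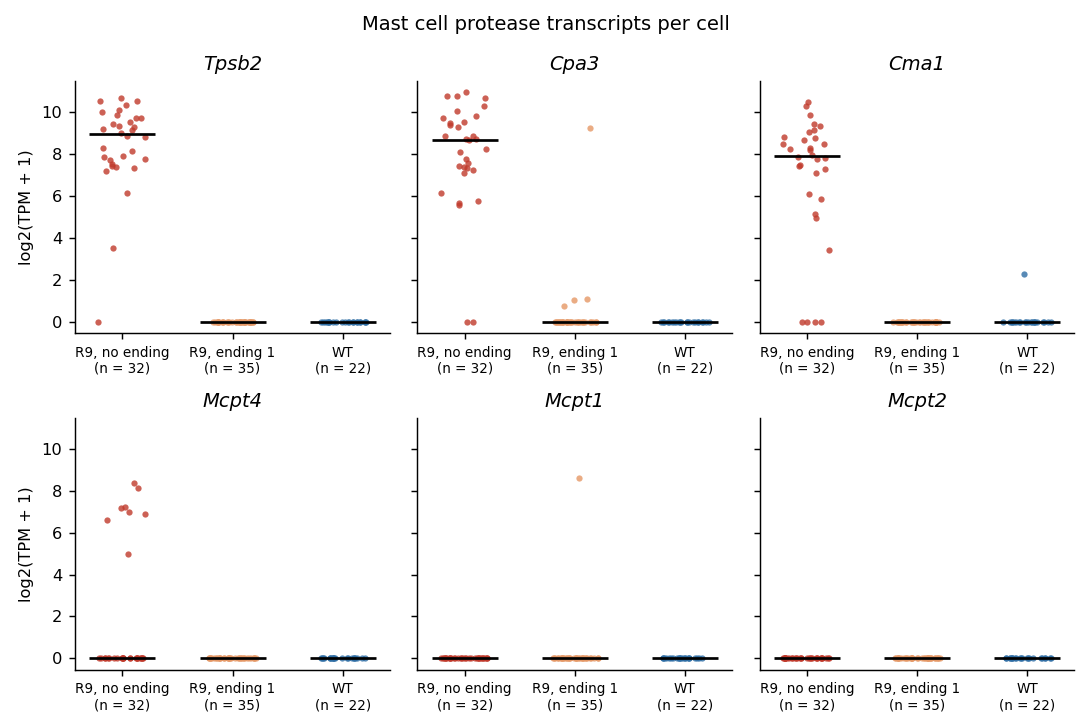
Levels of the 6 protease genes, 1 point per cell, as log2(TPM + 1) on the vertical axis; the 3 columns are unmarked R9 cells, ending-1 R9 cells and WT cells, and the bar is the median. Tpsb2, Cpa3 and Cma1 are high in most unmarked R9 cells (medians of 496.9, 410.7 and 243.2 TPM), Mcpt4 is seen in 8 of them, and Mcpt1 is seen in 1 ending-1 R9 cell.

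Group means were set side by side as log2 ratios with a pseudocount of 1 TPM, a scale that understates the differences of low genes. A gene was called where the ratio passed 1 in size and the mean reached 1 TPM in either group. In unmarked R9 cells over WT cells, 4 of the 6 members were high enough to enter and all 4 were called higher, whereas 26.6% of the 9956 genes that entered were called higher and 44.5% lower. Since these contrasts were known when the members were chosen, nothing is read from that count. Only Cma1 has a value above 0 in both groups, and its means were 335.8 TPM in unmarked R9 cells and 0.178 TPM in WT cells, a log2 ratio of 8.16. That ratio was 5.09 with a pseudocount of 10 TPM. Tpsb2, Cpa3 and Mcpt4 were listed at 0 in WT cells and no fold is given. The R9 and WT tables were normalized separately, so these are levels set across tables.

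The 2 R9 title series stand in 1 table. In unmarked over ending-1 R9 cells, 5 members entered, of which Tpsb2, Cpa3, Cma1 and Mcpt4 were called higher and Mcpt1 lower, beside 16.1% of 10321 genes called higher and 64.9% lower. Cpa3 averaged 566.5 TPM in unmarked R9 cells and 17.7 TPM in ending-1 R9 cells, a log2 ratio of 4.93, which was 8.91 without the highest cell of each group. The median log2 ratio over all genes in this comparison was -1.61, so most genes ran the other way from the 4 proteases that were higher. In ending-1 R9 cells over WT cells, 2 members entered, Cpa3 and Mcpt1. Both were called higher on the strength of 1 cell each, beside 48.8% of 10395 genes called higher and 20.4% lower. With the highest cell of each gene left out, neither was called. These 3 comparisons share groups and are not independent of each other.

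The members were a small part of the transcripts of each cell. Their sum was 61.1 TPM at its lowest, 1349 at its median and 4568 at its highest in unmarked R9 cells, which is 0.00611%, 0.135% and 0.457% of all TPM. In ending-1 R9 cells the sum was above 0 in 5 of 35 cells, with a highest value of 615.9 TPM, and in WT cells it was above 0 in 1 of 22 cells. All 32 unmarked R9 cells had at least 2 members at 10 TPM or more, 25 had at least 3 and 7 had 4, whereas no ending-1 R9 cell and no WT cell had 2. Every unmarked R9 cell thus lay above every WT cell, while the ending-1 R9 cells 11 and 42 overlapped the lower unmarked R9 cells. The lowest sums were in unmarked R9 cells 37, 33 and 25 (61.1, 80.7 and 122.3 TPM), and the highest were in cells 16, 38 and 11 (4568, 4002 and 3674 TPM).

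**Figure D2:**
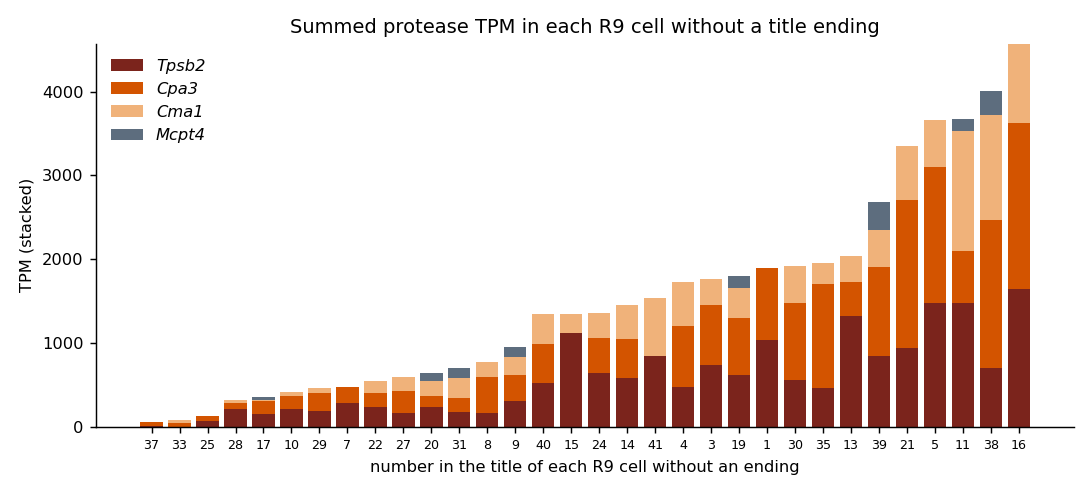
Stacked TPM of Tpsb2, Cpa3, Cma1 and Mcpt4 on the vertical axis for each of the 32 unmarked R9 cells, ordered by their sum and named on the horizontal axis by the number in the title. The sum spans 61.1 to 4568 TPM, and Tpsb2 and Cpa3 make up most of the bar in most cells.

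The cells of the 3 groups also differed in ways that bear on any level per cell. Counting genes that reached 1 TPM, the median per cell was 2082.5 in unmarked R9 cells (range 1187 to 2989), 2429 in ending-1 R9 cells (1913 to 6042) and 2092.5 in WT cells (793 to 7518). The most abundant gene of a cell took at least 10% of its TPM in 26 of 32 unmarked R9 cells, 1 of 35 ending-1 R9 cells and 5 of 22 WT cells, which lowers all other TPM values of such a cell. Il7r, which encodes the sort marker CD127, was at 1 TPM or more in all cells of the 3 groups. Of the 5 T cell genes in the tables, Cd8a was at 0 in all cells, Cd3d was at 1 TPM or more in 0, 1 and 1 cells of the unmarked R9, ending-1 R9 and WT groups, Cd3e in 1, 1 and 0, Cd4 in 3, 0 and 6, and Cd3g in 9, 25 and 11. Il23r, which marks ILC3, had medians of 71.9, 23.9 and 23.5 TPM and means of 143.3, 440.6 and 268.9 TPM in unmarked R9, ending-1 R9 and WT cells, so its order depends on the summary. The part of these differences in the protease levels was not tested.

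Within single unmarked R9 cells Tpsb2 and Cpa3 were mostly of similar level, and Cma1 was mostly lower. In the 29 cells with both at 10 TPM or more, the median log2 ratio of Tpsb2 to Cpa3 was 0.01 with an SD of 0.90 over cells, and 22 of the 29 cells had the 2 genes within 2-fold of each other. Tpsb2 was above Cpa3 in 17 and below it in 15 of 32 cells, so neither gene led. Tpsb2 exceeded Cma1 in 27 of 32 cells, with a median log2 ratio of 0.67 (SD 0.86, 26 cells). Cpa3 exceeded Cma1 in 27 of 32 cells, with a median log2 ratio of 0.80 (SD 0.75, 25 cells). Cma1 was within 2-fold of Tpsb2 in 18 of those 26 cells and of Cpa3 in 13 of those 25. The order of the medians was therefore Tpsb2 and Cpa3 together, then Cma1, with differences smaller than the spread over cells for Tpsb2 over Cma1 and about as large as that spread for Cpa3 over Cma1.

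Where Mcpt4 was seen it was the lowest of the 4 in 7 of the 8 cells. The median log2 ratio was 1.35 for Tpsb2 over Mcpt4 (SD 0.85) and 1.90 for Cpa3 over Mcpt4 (SD 0.84), with both in all 8 cells, and 0.99 for Cma1 over Mcpt4 (SD 1.01, 7 cells). In the exception, cell 17, Mcpt4 was above Cma1, at 31.0 against 9.77 TPM. For scale, the neighbouring gene pair Tmem176a and Tmem176b, which mark ILC3, had a log2 ratio with an SD of 0.68 (31 cells) and the housekeeping pair B2m over Actb had 1.44 (32 cells). The SDs of the 3 pairs among Tpsb2, Cpa3 and Cma1, 0.75 to 0.90, lay between those of Tmem176a with Tmem176b and B2m with Actb. Tpsb2 over genes of other kinds had SDs of a similar size, 1.05 over Tmem176b and 0.93 over B2m.

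**Figure D3:**
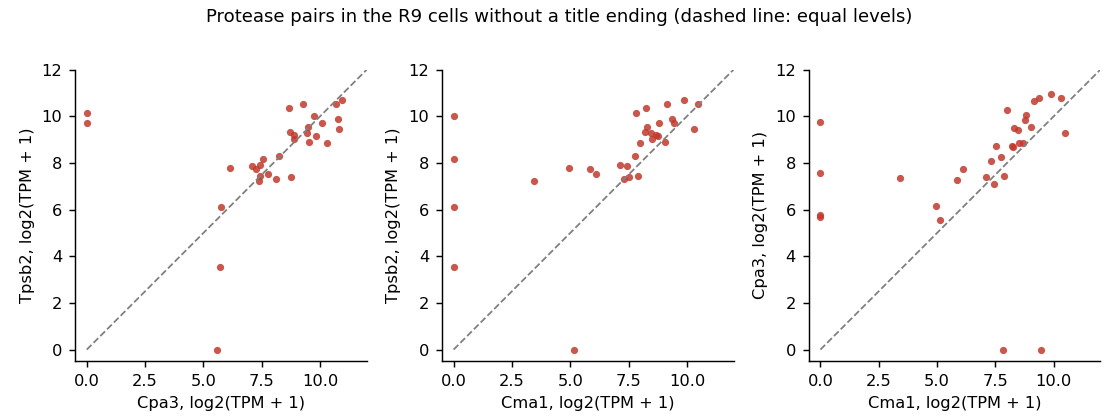
Levels of 2 proteases against each other in the 32 unmarked R9 cells, as log2(TPM + 1) on both axes, with a dashed line at equal levels. Tpsb2 and Cpa3 scatter on both sides of the line, Cma1 lies below Tpsb2 in 27 and below Cpa3 in 27 of 32 cells, and the points on the axes are the cells in which 1 gene was listed at 0.

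Across the 32 unmarked R9 cells, levels of the 3 proteases on the log2(TPM + 1) scale were positively correlated by rank. Tpsb2 and Cma1 had a Pearson r of 0.52 and a Spearman rho of 0.72, Tpsb2 and Cpa3 had 0.31 and 0.59, and Cpa3 and Cma1 had 0.26 and 0.64. Without the 2 cells farthest from the median of the first gene, r was 0.53, 0.21 and 0.64 for these pairs, so the low Pearson value of Cpa3 with Cma1 rests on cells 15 and 41, which had Cpa3 at 0. All values in a cell share that cell's TPM total, and a cell in which 1 gene takes a large share has all its other genes lowered together. With common genes as the scale of each cell instead, a choice made after seeing the data, r was 0.14, -0.05 and 0.05, and rho was 0.34, 0.07 and 0.41. Mcpt4 had r of 0.12, 0.19 and 0.26 with Tpsb2, Cpa3 and Cma1. No correlation was computed in ending-1 R9 or WT cells, in which no member reached 6 cells.

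ILC3 genes were compared with the mean protease level, the mean log2(TPM + 1) of the 4 members seen in 8 or more unmarked R9 cells. Of the 20 listed ILC3 genes, 13 were at 1 TPM or more in at least 16 cells. All of these had a positive r, with a median of 0.45 and a range of 0.04 to 0.61, beside a median of 0.27 over the 1228 genes that met the same limit, whose 5th to 95th percentiles ran from -0.05 to 0.59. Tmem176a had r = 0.61, Ltb, a lymphotoxin subunit gene, 0.58, Tmem176b 0.58 and Lta, which encodes another lymphotoxin, 0.57. Il23r, the receptor gene for interleukin 23, had 0.45, Ccr6, a chemokine receptor gene, 0.45, and Kit, a receptor shared by ILC3 and mast cells, 0.39. The lowest were Cxcr5 with 0.12 and Pram1 with 0.04. Among all genes, Tmem176a stood at the 95.7th percentile and Kit at the 71.9th.

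These relations changed with the scale. With cells scaled by common genes the median r of the ILC3 genes was 0.10, 8 of the 13 were positive, the range was -0.29 to 0.29, and the median over all genes was 0.05. The mean protease level itself had r = 0.44 with the count of genes that reached 1 TPM in a cell. It had r = 0.65 with the log2 factor that scales a cell by its common genes. With the share of TPM of a cell's largest gene it had r = 0.37 and rho = 0.31. The part of any of these measures in the ILC3 correlations was not tested beyond this rescaling. Without the 2 cells farthest from the median, the median r was 0.35 for the ILC3 genes and 0.23 for all genes. Removing the 6 members from each cell's total left the median of the ILC3 genes at 0.45. By single member, Ltb had r = 0.85 with Tpsb2, 0.31 with Cpa3 and 0.47 with Cma1, and Lta had 0.81, 0.28 and 0.43. These are Pearson values on the deposited TPM, and Cpa3 was at 0 in cells 15 and 41. The part of those cells in the lower values with Cpa3 was not tested. With cells scaled by common genes, r with the mean protease level was -0.08 for Ltb and 0.24 for Lta, and values by single member were not computed.

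**Figure D4:**
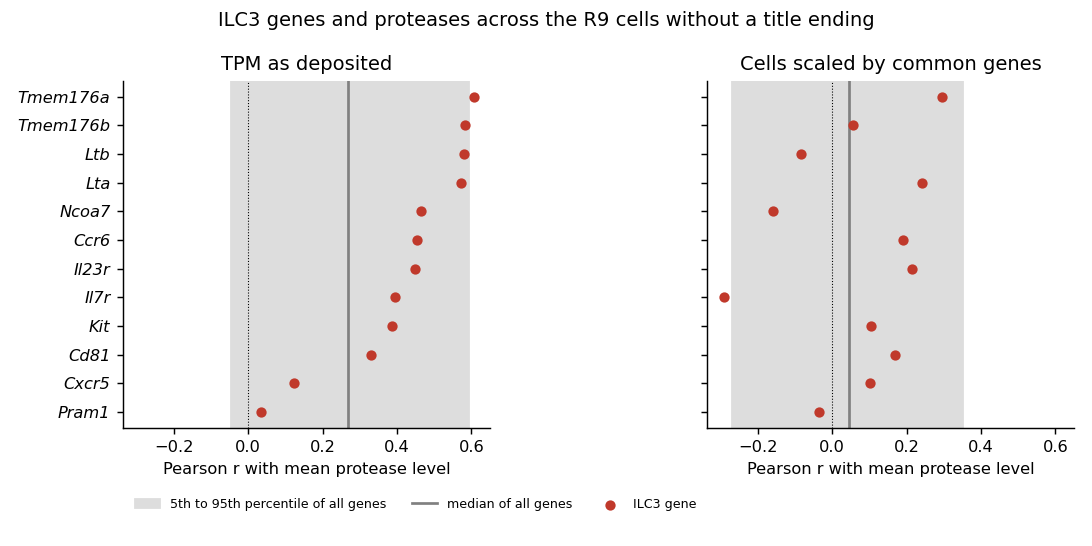
Pearson r of 12 of the 13 ILC3 genes with the mean protease level over 32 unmarked R9 cells, on the horizontal axis, for TPM as deposited and for cells scaled by common genes. The grey band runs from the 5th to the 95th percentile of 1228 genes and the grey line is their median; all points are above 0 with the deposited TPM (median of the 13 genes 0.45), and points lie on both sides of 0 with the other scale (median of the 13 genes 0.10).

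The genes most like the proteases across unmarked R9 cells were found by the highest Pearson r with the mean protease level among those 1228 genes. They were Hspa5 (0.73), a chaperone of the endoplasmic reticulum, Psap (0.71), a lysosomal protein precursor, Cnp (0.70), Lgals3bp (0.70), Capg (0.69), Laptm5 (0.69), a lysosomal membrane protein, Pdia3 (0.68), a disulfide isomerase, Tmem59 (0.68), Spcs2 (0.67), a signal peptidase subunit, and Id2 (0.67), a transcriptional regulator required for ILCs. All 10 were also at 10 TPM or more in at least 17 of 35 ending-1 R9 cells and 7 of 22 WT cells, unlike the proteases. With cells scaled by common genes their r ran from 0.23 for Id2 to 0.54 for Capg.

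By their distribution over the groups, the most similar genes were others. The members were chosen by their levels in these same cells, so nothing is read from their own ranks here. The difference between the share of unmarked R9 cells at 10 TPM and the higher share of the other 2 groups was 96.9 percentage points for Tpsb2, 90.9 for Cpa3 and 84.4 for Cma1, the 3 highest of all genes, while Mcpt4 ranked 421. Next came Ly6d, at 10 TPM or more in 26 unmarked R9 cells and in no cell of the other groups. Lyz2, the myeloid lysozyme gene, reached 10 TPM in 31, 3 and 4 cells of the unmarked R9, ending-1 R9 and WT groups. At 1 TPM or more these counts for Lyz2 were 31, 10 and 7. H2-Ab1, a class II antigen presentation gene, reached 10 TPM in 30, 4 and 6 cells. S1pr4, H2-Aa, Egr1, Dusp1, Klf6, Stmn1 and Tmem154 completed the 10. Lyz2 had r = 0.62 with the mean protease level, and 0.41 with cells scaled by common genes. By single member on the deposited TPM, its r was 0.43 with Tpsb2, 0.16 with Cpa3 and 0.80 with Cma1.

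Other genes of mast cells were set beside the proteases in the same cells. Of 7 other mast cell and basophil proteases, 4 (Cma2, Mcpt8, Mcpt9 and Ctsg) were listed at 0 in every unmarked R9 cell. Tpsab1, the second tryptase, reached 10 TPM in 2 of the 32 cells with a highest value of 91.1 TPM, Tpsg1 in 1 cell at 54.6 TPM and Prss34, a serine protease known from basophils and mast cells, in 4 cells with a highest value of 361.8 TPM. All 7 were listed at 0 in the ending-1 R9 cells, and in WT cells only Tpsg1 was seen, in 1 cell at 9.87 TPM. In unmarked R9 over WT cells 3 of the 7 entered and 2 were called higher, with a median log2 ratio of 2.48. Over all genes 26.6% were called higher, with a median of -0.67. The 2 called, Tpsab1 and Prss34, were at 0 in every WT cell, and such a gene is called higher whenever it enters. Nothing is read from that count or median.

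Receptors and transcription factors of mast cells were mostly at or near 0. Of the 12 listed, 6 were at 0 in every unmarked R9 cell: Ms4a2, the beta chain of the IgE receptor, Mitf and Gata1, transcription factors of the lineage, Il1rl1, the interleukin 33 receptor, Cd200r3 and Adora3. Fcer1a, the IgE-binding chain, was seen in 1 of 32 cells, at 55.3 TPM, and was at 0 in both other groups. Gata2, a further transcription factor of the lineage, was above 1 TPM in 2 cells, with a highest value of 6.19 TPM. Mrgprb2, a receptor known from connective tissue mast cells, was seen in 6 of 32 unmarked R9 cells (18.8%, 7.21% to 36.4%) with a highest value of 343.6 TPM and was at 0 in every ending-1 R9 and WT cell. The sum of Tpsb2, Cpa3 and Cma1 had a median of 1712 TPM in the 6 cells with Mrgprb2 and 1345 TPM in the 26 without, with overlapping ranges of 540.8 to 4568 and 61.1 to 3724 TPM.

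A pair of the listed receptors was common in all 3 groups, and ILC3 also express them. Fcer1g, the shared signalling chain of Fc receptors, was at 10 TPM or more in 31 of 32 unmarked R9, 35 of 35 ending-1 R9 and 21 of 22 WT cells, with medians of 510.3, 3543 and 1062 TPM. Kit was at 10 TPM or more in 24 of 32, 20 of 35 and 9 of 22 cells of these groups, with the highest share (75.0%, against 57.1% and 40.9%) in unmarked R9 cells, and had medians of 29.2, 84.4 and 4.23 TPM, with the highest in ending-1 R9 cells. In unmarked R9 over WT cells 6 of the 12 entered, 3 were called higher and 2 lower, with a median log2 ratio of 0.34. Over all genes 26.6% were called higher and 44.5% lower, with a median of -0.67. The 3 called higher, Fcer1a, Mrgprb1 and Mrgprb2, were at 0 in every WT cell. Mitf, among the 2 called lower, was at 0 in every unmarked R9 cell. Such genes are called whenever they enter, so nothing is read from these counts. The summed TPM of the 12 genes was 0 at its lowest, 571.2 at its median and 4955 at its highest in unmarked R9 cells, against 113.6, 3704 and 8679 TPM in ending-1 R9 cells and 0.645, 1107 and 9757 TPM in WT cells.

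Among 12 mast cell mediators and lineage enzymes, Hdc, the histamine-forming enzyme, Hpgds, Ptgs1 and Ltc4s were listed at 0 in every unmarked R9 cell. At 1 TPM or more, Hdc was seen in 1 ending-1 R9 cell, cell 4, at 273.3 TPM. Hpgds, a prostaglandin D synthase, was seen in ending-1 R9 cell 8 at 283.7 TPM. Ltc4s was seen in 4 of 35 ending-1 R9 cells, with a highest value of 83.9 TPM. Ptgs1 was seen in 2 ending-1 R9 cells and 1 WT cell. The other 8 genes of the list were seen in unmarked R9 cells. Alox5ap, which assists leukotriene synthesis, was seen in 5 of 32 cells with a highest value of 317.1 TPM. It was also seen in 2 ending-1 R9 cells, with a highest value of 7.97 TPM. At 1 TPM or more, Alox5, the lipoxygenase of leukotriene synthesis, was seen in 5 unmarked R9 cells, Slc18a2 and Cyp11a1 in 2 each and Tph1, Rab27b and Slc45a3 in 1 each, and none of these 6 reached 1 TPM in an ending-1 R9 or WT cell. Cd63, a granule membrane protein, was seen in 1 unmarked R9 cell, 5 ending-1 R9 cells and 5 WT cells. In unmarked R9 over WT cells 6 of the 12 entered, 5 were called higher and 1 lower, with a median log2 ratio of 1.78. Over all genes 26.6% were called higher and 44.5% lower, with a median of -0.67. The 5 called higher were at 0 in every WT cell, and such a gene is called higher whenever it enters. Nothing is read from that count or median. The summed TPM of this list had a median of 0 in each group and highest values of 409.2, 283.7 and 950.0 TPM in unmarked R9, ending-1 R9 and WT cells. Whether mast cells in the sort, or RNA from them, add to the protease values was not tested.

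Of 11 listed genes for protease activation, storage and heparin synthesis, 11, 9 and 8 reached 1 TPM in a cell of the unmarked R9, ending-1 R9 and WT groups. Ndst2 did so in 5, 0 and 0 cells of these groups, Glce in 2, 0 and 0 and Ext1 in 1, 2 and 0. Srgn, the core protein of serglycin, was at 1 TPM or more in 30 of 32 unmarked R9, 35 of 35 ending-1 R9 and 20 of 22 WT cells, with medians of 325.2, 811.4 and 186.7 TPM and means of 436.9, 1233 and 586.2 TPM. Ctsc, the peptidase that removes the propeptide of granule serine proteases, had medians of 32.5, 3.73 and 2.35 TPM and means of 84.2, 244.6 and 37.5 TPM in these groups. Ctss and Ctsb, lysosomal cysteine proteases, had medians of 283.3 and 107.6 TPM in unmarked R9 cells, 4.76 and 114.8 TPM in ending-1 R9 cells and 99.6 and 79.1 TPM in WT cells. Their means were 362.0 and 189.1 TPM in unmarked R9 cells, 420.1 and 196.5 TPM in ending-1 R9 cells and 349.4 and 212.5 TPM in WT cells. The order of the groups differed between median and mean for all 4 of these genes. Of the 11 genes of this list, 9 entered the comparison of unmarked R9 with WT cells, 3 were called higher and 1 lower, with a median log2 ratio of 0.05, beside 26.6% higher, 44.5% lower and a median of -0.67 over all genes.

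Several protease inhibitors were common in all 3 groups. Serpinb1a, an inhibitor of neutrophil-type serine proteases and chymases, was at 1 TPM or more in all 32 unmarked R9, all 35 ending-1 R9 and 21 of 22 WT cells, with medians of 379.1, 2034 and 619.1 TPM. Serpina3g had medians of 682.5, 11.4 and 213.1 TPM, Cst3, a cystatin, 212.2, 782.7 and 194.8 TPM, and Cstb 22.9, 304.8 and 11.4 TPM, while the means of Cstb were 122.0, 478.0 and 403.0 TPM. Among these 4, Serpina3g was the one with its highest median in unmarked R9 cells. Within those cells its r was 0.88 with Tpsb2, 0.30 with Cpa3 and 0.63 with the mean protease level, and the last was 0.14 with cells scaled by common genes. Of 7 listed inhibitors, 5 entered the comparison of unmarked R9 with WT cells, 1 was called higher and 2 lower, with a median log2 ratio of 0.39, beside 26.6% higher, 44.5% lower and a median of -0.67 over all genes. Granule proteases of cytotoxic lymphocytes were rare: Gzma, Gzmk, Gzmm and Prf1 were listed at 0 in all unmarked R9 cells, Gzmb was seen in 1 and Gzmc in 3.

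**Figure D5:**
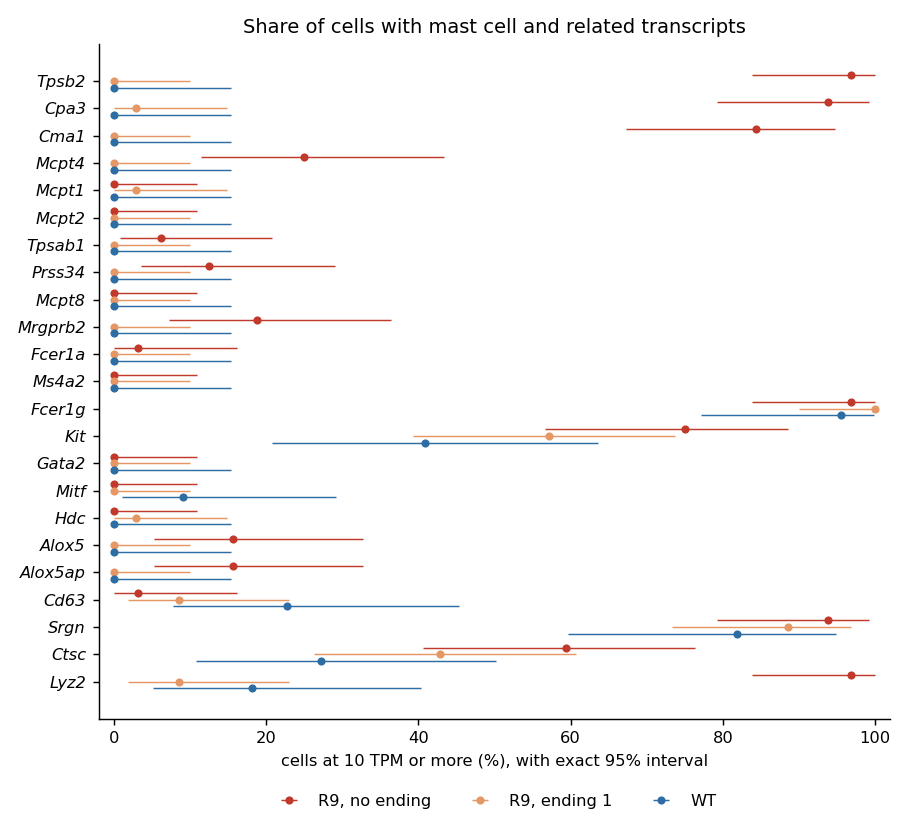
Share of cells at 10 TPM or more, in percent with exact 95% intervals, for the 6 members and related genes, in unmarked R9, ending-1 R9 and WT cells from top to bottom within each gene. Tpsb2, Cpa3, Cma1 and Lyz2 are seen in 84.4% to 96.9% of unmarked R9 cells and in few or none of the others, while Fcer1g and Srgn are seen in most cells of all groups.

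Markers of other cell types also moved with the title series. The summed TPM of 9 macrophage and dendritic genes, Lyz2 among them, ran from 39.99 through a median of 444.5 to 3944 TPM in unmarked R9 cells, against medians of 0 in ending-1 R9 cells (highest 1874) and 1.49 in WT cells (highest 4834). Lyz2 alone had a median of 336.5 TPM in unmarked R9 cells. Itgax and Cd14 were at 0 in all unmarked R9 cells. Of the 9 genes, 7, 5 and 7 were seen in the unmarked R9, ending-1 R9 and WT groups. The sum of 12 epithelial genes had medians of 1267, 46.1 and 7637 TPM in unmarked R9, ending-1 R9 and WT cells. That of 4 erythroid genes had medians of 169.6, 94.1 and 9.75 TPM and highest values of 10989, 194862 and 870.4 TPM in these groups. The order of the 2 R9 series for erythroid genes thus depends on the summary. The sum of 8 neutrophil genes had a median of 0 in each group. The highest epithelial sums were 435978, 14437 and 106682 TPM in these groups, so the order of unmarked R9 and WT cells depends on the summary. Of the 12 epithelial genes 6 were called higher and 5 lower in unmarked R9 over WT cells. Over all genes 26.6% were called higher and 44.5% lower. The part of RNA from other cells in the protease values was not tested.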

How the data were processed

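Single sorted ILCs were sequenced; per the labels' protocols, RNA was amplified with a Discover-sc kit and libraries came from a TruePrep kit. The authors deposited TPM values per gene and cell in 2 tables, 1 for R9 and 1 for WT cells, with 98 columns in all, each summing to 1e+06. The submitters' processing notes name bcl2fastq, HISAT2 2.1.0, SAMtools 0.1.19, StringTie 1.3.4 and the build mm10, without their settings. Depth cannot be read from TPM and is unknown.

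WT columns whose log2(TPM + 1) values had a Pearson r over 0.8, in genes that both detected, were averaged as 1 cell, for 89 cells in all. That these are 1 cell is an assumption, since some joined columns shared only 24.0% of their genes. A WT column without an ending in its name was mapped to its group only. Ratios are log2((mean TPM + 1)/(mean TPM + 1)) of 2 groups, for all genes whose mean reached 1 TPM in at least 1 of them. A list's median includes genes listed at 0 in 1 group, whose ratio depends on the pseudocount. With these limits a gene listed at 0 in 1 group is called whenever it enters. Correlations used the 32 unmarked R9 cells. The tools were Python 3.11.15 with numpy 2.4.6, pandas 2.3.3, matplotlib 3.10.9 and scipy 1.17.1, and the ratio and correlation steps were tested on simulated data.

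Beside the 6 members, the text names up to 4 genes of each list with the highest mean TPM in any group, fixed mast cell and ILC3 genes, and the 10 genes most like the proteases by each measure. Genes named because they were at 0 in all unmarked R9 cells, the mediators seen in few of them, Ndst2, Glce, Ext1, Itgax, Cd14 and the T cell genes, and the split of cells by Mrgprb2, were chosen after their values were seen. The members and lists were chosen with earlier results of these data known. Alternatives were run for the pseudocount, summary, scaling, filters and cells used. One listed ILC3 gene counts in the list's totals and medians and is not reported here by itself.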

Additional observations from a re-analysis of the deposited data

How the results depend on the processing

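The 4 members called higher in unmarked R9 cells, over WT and over ending-1 R9 cells, stayed at 4 under each of the 9 alternatives run, while the share of all genes called higher ran from 9.43% to 37.2% over WT and from 5.88% to 20.4% over ending-1 R9 cells. Over WT no more than these 4 entered in the reported comparison, so that count was at its ceiling. Over ending-1 R9 cells, the use of all 31 WT columns changes no cell and could not move the count. The members were chosen from these same values, so nothing is read from either count staying at 4. Calls that rest on 1 cell changed. The 2 members called higher in ending-1 R9 over WT cells became 0 with a difference of log2 means. They became 1 without cells of over 4000 genes and 0 without each gene's highest cell. The 1 member called lower in unmarked over ending-1 R9 cells became 0 in each of these alternatives. With cells scaled by common genes, 1 member, against 0, was called lower in ending-1 R9 over WT cells. The median r of ILC3 genes was 0.10 with that scaling, against 0.45, a choice made after seeing the data, as was the scaling of the summed share, whose median became 0.0911% against 0.135%. The log2 ratio of Cpa3 in unmarked over ending-1 R9 cells was 4.93 as reported and 7.65 as a difference of log2 means. In all, 8 alternative values of the main results moved past their limits and 58 did not, and for single genes 4 moved and 46 did not. Those that did not move include some that could not, such as all 31 WT columns for the 2 R9 title series. The cause was not tested where values moved. No paired analysis was possible because title numbers name single cells, pair nothing across groups, and no test was made. With 1 sample a group and unknown depth, no difference has a replicate check, and a gene listed at 0 may have been missed.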
